A study of Homo sapiens with 6 samples.

Results

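DIO2, WISP2, RARRES1 and IGFBP3 are 4 genes of hormone, matricellular, retinoid and growth factor signalling, taken by symbol from a deposited table of 1305 genes that the authors had listed as changed by mitoxantrone. Each symbol had 1 row, so all 4 were found, and all are among the 512 listed genes that were lower with the drug. They were chosen by that difference in the read counts and FPKM of these same libraries, so the values that compare the treatments are descriptions and carry no test. RNA came from NCI-H292, a long-established line of human lung cancer cells, treated with 50 nM mitoxantrone (3 libraries) or with the solvent DMSO at a dilution of 1 in 1000 (3 libraries), each for 48 hours. Mitoxantrone is a topoisomerase II poison that leaves breaks in DNA, and the series title places the experiment in work on senescence of lung cancer cells. Whether the libraries came from separate cultures is not stated, so their spread may be technical. The drug-treated libraries held 14762586 to 15663306 assigned reads and the DMSO libraries 15789525 to 17817848.

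The 4 genes stand for different signalling systems, although WISP2 and IGFBP3 share the annotation insulin-like growth factor binding. DIO2 encodes type 2 deiodinase, a membrane-bound selenoenzyme that removes an iodine from thyroxine and so makes the active thyroid hormone inside the cell. WISP2, now called CCN5, encodes a secreted matricellular protein of the CCN family, which shares an N-terminal domain with the insulin-like growth factor binding proteins and lacks the C-terminal domain of its relatives. RARRES1 encodes a membrane protein found as a gene induced by the retinoid tazarotene. It is related to latexin, an inhibitor of carboxypeptidases. IGFBP3 encodes the main carrier of insulin-like growth factors in serum, which holds these ligands away from their receptor and is also known as a target of p53.

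As a selenoprotein mRNA, DIO2 is read through UGA codons that most mRNAs use as stops, and these codons are shown because they mark what sets this deiodinase apart from the other 3 products. Both stretches below come from the transcript DIO2-210 of GENCODE 29 (GRCh38, chromosome 14, minus strand), written as DNA with the annotated selenocysteine codon in capitals. The first codon lies at positions 80203112 to 80203114 and the second at 80202713 to 80202715.
DIO2 first selenocysteine codon: ggctcagccactTGAcctcctttcacg
DIO2 second selenocysteine codon: ttcagcaagagaTGAaagaaaactaga

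The sequence around the starts of the 4 genes was searched for 8 short motifs on both strands. Their common direction was fixed by their choice and gives no ground to expect a shared motif. RefSeq promoters (GRCh38.p14, 250 bases before to 50 after the start, minus strand for every sequence printed here) matched 3 of the 4 genes, with 2 alternative starts for DIO2; WISP2 had no entry. Capitals mark every match on either strand to the TATA box TATAAA, the CCAAT box, the GC box GGGCGG, the AP-1 site TGANTCA, the cyclic AMP response element TGACGTCA, the nuclear receptor half-site AGGTCA or the cell cycle element TTTGAA. The E-box CANNTG was counted without being marked. The 4 promoters lie at chr14:80212129-80212428 and chr14:80211455-80211754 (DIO2, upstream and downstream start), chr3:158732408-158732707 (RARRES1) and chr7:45921223-45921522 (IGFBP3).
DIO2 upstream start: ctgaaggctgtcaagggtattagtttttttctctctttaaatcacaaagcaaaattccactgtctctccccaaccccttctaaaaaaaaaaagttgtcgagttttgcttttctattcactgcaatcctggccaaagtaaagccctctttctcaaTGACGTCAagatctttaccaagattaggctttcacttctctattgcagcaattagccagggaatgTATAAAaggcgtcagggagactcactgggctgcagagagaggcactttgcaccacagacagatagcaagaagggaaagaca
DIO2 downstream start: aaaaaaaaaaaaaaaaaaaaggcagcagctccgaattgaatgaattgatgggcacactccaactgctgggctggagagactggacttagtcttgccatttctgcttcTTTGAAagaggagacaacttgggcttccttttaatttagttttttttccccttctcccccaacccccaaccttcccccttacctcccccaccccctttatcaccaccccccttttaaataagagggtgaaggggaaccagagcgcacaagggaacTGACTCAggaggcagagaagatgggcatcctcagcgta
RARRES1: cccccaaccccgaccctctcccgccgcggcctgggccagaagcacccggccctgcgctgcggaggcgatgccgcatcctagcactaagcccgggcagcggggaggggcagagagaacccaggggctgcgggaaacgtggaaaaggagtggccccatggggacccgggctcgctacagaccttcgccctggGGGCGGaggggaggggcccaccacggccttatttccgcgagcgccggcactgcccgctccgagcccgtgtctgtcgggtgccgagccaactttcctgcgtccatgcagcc
IGFBP3: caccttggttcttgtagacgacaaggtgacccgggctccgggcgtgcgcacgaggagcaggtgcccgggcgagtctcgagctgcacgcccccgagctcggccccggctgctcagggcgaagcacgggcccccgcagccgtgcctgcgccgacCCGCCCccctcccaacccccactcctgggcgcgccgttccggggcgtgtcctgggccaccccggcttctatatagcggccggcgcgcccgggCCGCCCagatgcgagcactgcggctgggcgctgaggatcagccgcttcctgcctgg

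The promoters fell into different base compositions. The DIO2 promoters held 42.3% G and C with 3 CpG dinucleotides at the upstream start and 48% with 3 at the downstream start. RARRES1 held 72% with 28 CpG dinucleotides and IGFBP3 74.7% with 36, against medians of 58.7% and 14 over 35116 RefSeq promoters. The upstream DIO2 promoter carried TGACGTCA at an offset of -96 bases and TATAAA at -31 bases. Of all promoters 1.8% held the first and 11.5% the second. The downstream DIO2 promoter carried TGANTCA at an offset of 12 bases (7.7% of promoters) and TTTGAA at -143 bases (15.2%). GGGCGG had 1 match in RARRES1 and 2 in IGFBP3 (45% of promoters). CANNTG had 1 match in the downstream DIO2 promoter and 2 in IGFBP3 (68.7%). CCAAT (34.6%) and AGGTCA (13.8%) had 0 matches in these windows. No searched motif occurred in all 4 promoters, which cover 3 of the genes.

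DIO2 was close to the floor of detection in the drug-treated libraries. It had 9, 4 and 6 reads in mitoxantrone replicates 1 to 3, against 243, 133 and 377 reads in DMSO replicates 1 to 3. After scaling by the authors' size factors these were 10.2, 4.17 and 6.44 normalized reads with mitoxantrone, against 208.8, 137 and 323 with DMSO. The groups did not overlap, and the lowest DMSO library was 13.5 times the highest mitoxantrone library. The mean was 6.93 ± 3.03 normalized reads with mitoxantrone and 223 ± 93.8 with DMSO (SD, n = 3 each), so 3.11% of the DMSO level remained. The fitted log2 fold change was -5.00 with a standard error of 0.38, a 32.1-fold lower level. The 19 reads of the 3 drug-treated libraries have a 95% exact Poisson interval of 11.4 to 29.7 reads, for counting error only.

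WISP2 had a loss of similar size. Its libraries held 6, 11 and 8 reads with mitoxantrone, against 199, 202 and 397 with DMSO. Normalized reads were 6.79, 11.5 and 8.59 with mitoxantrone, against 171, 208.1 and 340.1 with DMSO. DMSO replicate 3 was well above the other DMSO libraries, and the lowest DMSO library was still 14.9 times the highest mitoxantrone library. Means were 8.94 ± 2.36 with mitoxantrone and 239.8 ± 88.9 with DMSO (SD, n = 3 each), with 3.73% of the DMSO level remaining. The fitted log2 fold change was -4.72 (standard error 0.32), a 26.3-fold lower level. The 25 reads of the drug-treated libraries have a 95% exact Poisson interval of 16.2 to 36.9.

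RARRES1 kept a low level with the drug. Reads were 19, 21 and 23 with mitoxantrone, against 164, 215 and 243 with DMSO. Normalized reads were 21.5, 21.9 and 24.7 with mitoxantrone, against 140.9, 221.5 and 208.2 with DMSO. DMSO replicate 1 was the lowest of its group, and a 5.71-fold gap separated the groups. The coefficient of variation (SD over mean) of the 3 drug-treated libraries was 7.7%, below the 21.8% that counting alone gives. Their closeness therefore cannot show an even level. Means were 22.7 ± 1.75 with mitoxantrone and 190.2 ± 43.2 with DMSO (SD, n = 3 each), 11.9% of the DMSO level. The fitted log2 fold change was -3.06 (standard error 0.24), an 8.33-fold lower level.

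IGFBP3 was by far the most abundant of the 4 and had the smallest relative loss. It had 427, 396 and 355 reads with mitoxantrone, against 1264, 1393 and 1535 with DMSO. Normalized reads were 482.8, 412.6 and 381 with mitoxantrone, against 1086, 1435 and 1315 with DMSO. The groups did not overlap, with the lowest DMSO library 2.25 times the highest mitoxantrone library. Means were 425.5 ± 52.1 with mitoxantrone and 1279 ± 177 with DMSO (SD, n = 3 each), 33.3% of the DMSO level. The fitted log2 fold change was -1.59 (standard error 0.15), a 3.01-fold lower level.

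**Figure D1:**
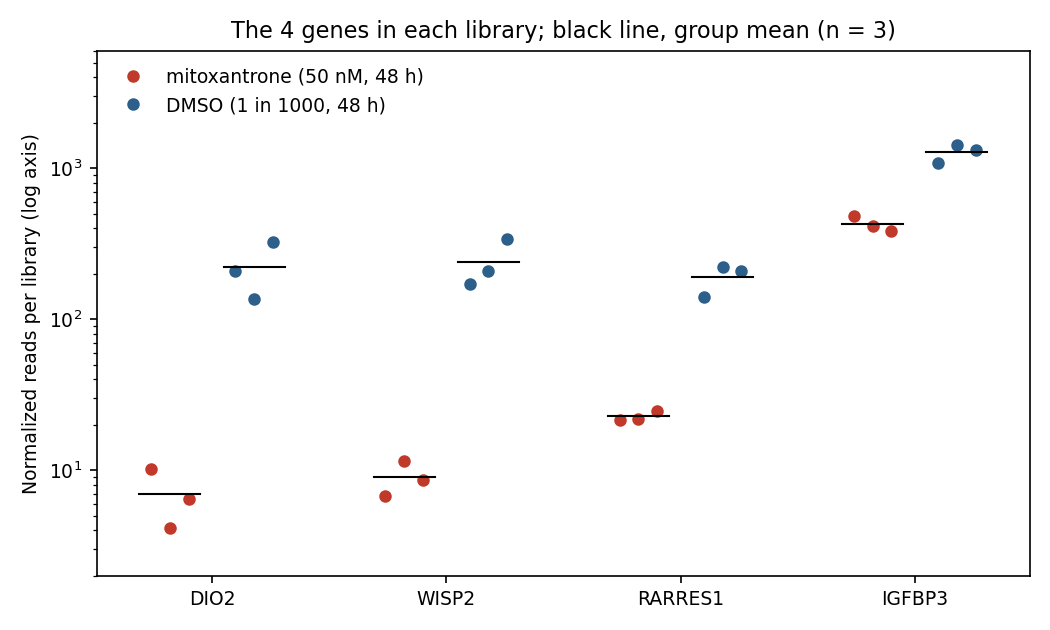
Normalized reads of DIO2, WISP2, RARRES1 and IGFBP3 in each library on a log axis, mitoxantrone (red) left of DMSO (blue), with black lines at the group means. The groups do not overlap for any of the 4 genes, and the gap narrows from 13.5-fold for DIO2 and 14.9-fold for WISP2 to 2.25-fold for IGFBP3.

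In a bulk sample a level near 0 in all cells and a level kept in a few cells cannot be told apart, and neither can fewer expressing cells and less RNA per cell. Over all listed genes, 503 (38.5%) had drug-treated libraries that were all below the DMSO libraries and 784 (60.1%) had them all above. The lack of overlap of the 4 genes is therefore what a listed lower gene usually shows, and the choice of the genes used it.

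DIO2, WISP2 and RARRES1 were among the steepest losses of the table, and IGFBP3 was not. By fitted log2 fold change DIO2 ranked 3, WISP2 4, RARRES1 20 and IGFBP3 224 among the 512 lower genes. IGFBP3 thus lay near the median lower gene, at -1.51. A further ranking kept the 262 lower genes whose mean over all libraries was at or above 64.2 normalized reads, the median of the table. There DIO2 and WISP2 ranked 1 and 2, RARRES1 5 and IGFBP3 60. DIO2, WISP2 and RARRES1 reached that mean only through their DMSO libraries, as their drug-treated means were 6.93, 8.94 and 22.7. Their better places therefore repeat the fall they were chosen by. Several neighbours in the order of all 512 lower genes were thinly counted. HIST1H3C, a histone H3 gene next to DIO2 on the steeper side, had 1 read over the drug-treated libraries and 58 over the DMSO libraries, and the collagenase gene MMP13, which followed WISP2, had 2 and 70. RARRES1 stood between the ferroxidase gene CP, with 2 and 24 reads, and the locus RP11-685G9.2, with 2 and 22. IGFBP3 stood between the locus WBP1LP2 (14 and 51 reads) and VILL, a villin-related gene (132 and 471 reads), whose log2 fold changes were also -1.59.

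By the gap between groups, which rests on single libraries and not on means, WISP2 ranked 2, DIO2 3, RARRES1 13 and IGFBP3 172. The first place went to HIST1H3J, a histone H3 gene with 0 reads over the drug-treated libraries and 20 over the DMSO libraries. In the authors' deposited table WISP2 ranked 1 and DIO2 2, with log2 fold changes of -3.98 and -3.40. That table gave RARRES1 -2.76 and IGFBP3 -1.54. The authors' value for DIO2 is a 3.04-fold smaller difference than the fitted one, that for WISP2 1.67-fold, and the order of these 2 genes turns round between the sources. Their fitted values, -5.00 and -4.72, differed by less than either standard error.

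**Figure D2:**
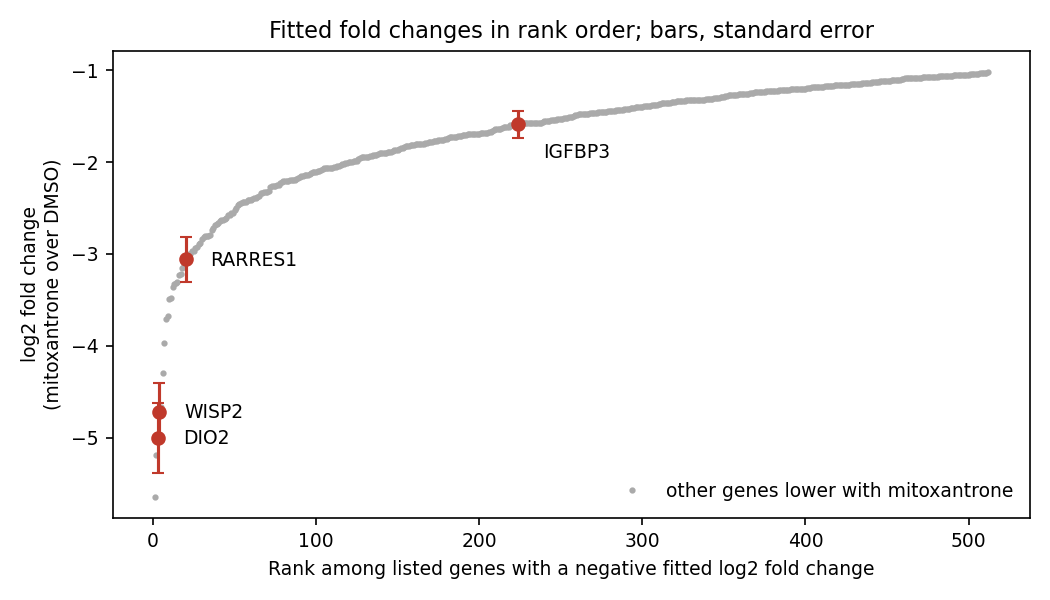
Fitted log2 fold changes (mitoxantrone over DMSO) of the 512 lower genes in rank order, with the 4 genes in red and bars for standard errors. DIO2 (-5.00) and WISP2 (-4.72) lie at the steep end, RARRES1 (-3.06) on the bend and IGFBP3 (-1.59) on the flat part.

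Levels can be compared between genes only per length. In FPKM, fragments scaled to gene length and library size, DIO2 had 0.08, 0.03 and 0.05 with mitoxantrone, against 1.84, 1.12 and 2.82 with DMSO. WISP2 had 0.08, 0.14 and 0.11 FPKM with mitoxantrone, against 2.27, 2.57 and 4.47 with DMSO. RARRES1 had 0.58, 0.60 and 0.69 FPKM with mitoxantrone, against 4.17, 6.09 and 6.1 with DMSO. IGFBP3 had 6.48, 5.66 and 5.36 FPKM with mitoxantrone, against 16.08, 19.75 and 19.29 with DMSO. The order from low to high was DIO2, WISP2, RARRES1 and IGFBP3 by the means of both treatments. In the DMSO libraries DIO2 and WISP2 overlapped, and so did WISP2 and RARRES1, so their places there lie within the spread of the libraries. IGFBP3 lost the most transcript in absolute terms, 12.5 FPKM, against 4.83 for RARRES1, 2.99 for WISP2 and 1.87 for DIO2.

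These levels depend on the gene length that the authors divided by. The table's lengths are 7500 bases for DIO2, 4981 for WISP2, 2236 for RARRES1 and 4466 for IGFBP3. The longest coding transcripts in GENCODE 29 are 6367, 1600, 1952 and 2412 bases. The WISP2 length is therefore 3.11 times its longest coding transcript, and that of IGFBP3 1.85 times. With the transcript lengths, an alternative chosen after seeing the data, the mean of the DMSO libraries became 9.66 ± 3.71 FPKM for WISP2 and 6.25 ± 1.27 for RARRES1 (SD, n = 3 each). WISP2 then stood above RARRES1. DIO2 became 2.27 FPKM and IGFBP3 34.0. Drug-treated IGFBP3 (5.83 ± 0.58 FPKM) and RARRES1 in DMSO libraries (5.45 ± 1.11 FPKM) were close on the table's lengths, but stood at 10.8 ± 1.07 and 6.25 ± 1.27 FPKM with the transcript lengths (SD, n = 3 each). Fold changes within a gene do not depend on this choice.

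Within the treatment groups no common course over the libraries was seen for all 4 genes, though some pairs were partly alike. Among the DMSO libraries DIO2 was lowest in replicate 2, at 61.5% of its group mean, and highest in replicate 3, at 144.9%. WISP2 was also highest in replicate 3, at 141.9%, but lowest in replicate 1, at 71.3%. RARRES1 and IGFBP3 were both lowest in replicate 1 (74.1% and 84.9%) and highest in replicate 2 (116.5% and 112.2%). Among the mitoxantrone libraries DIO2 ranged from 60.2% to 146.9% of its group mean on counts of 4 to 9 reads, where counting alone gives a coefficient of variation of 39.7%, against an observed 43.8%. After the group means were subtracted, Pearson's r over the 6 libraries was 0.57 between RARRES1 and IGFBP3, 0.51 between WISP2 and RARRES1, and -0.11 to 0.12 for the pairs with DIO2 and for WISP2 with IGFBP3. These are descriptions over 6 libraries that share their size factors, too few to show that genes vary independently.

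**Figure D3:**
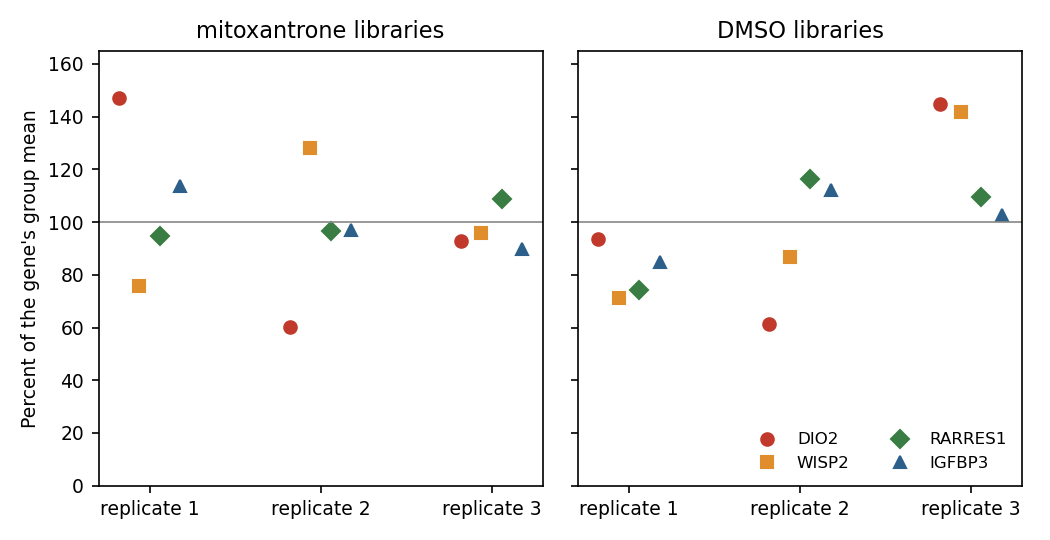
Each library's normalized reads as a percent of the gene's own group mean, mitoxantrone libraries on the left and DMSO libraries on the right. In DMSO replicate 3 both DIO2 (144.9%) and WISP2 (141.9%) are high, while RARRES1 and IGFBP3 are highest in replicate 2.

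DIO2 and WISP2 were uneven among the DMSO libraries. The coefficient of variation among DMSO libraries was 42.1% for DIO2, 37.1% for WISP2, 22.7% for RARRES1 and 13.9% for IGFBP3, where counting alone gives 6.31%, 6.13%, 6.95% and 2.68%. For lower genes with a mean within a factor of 2 of each gene, the median was 16.4% for the 95 genes around DIO2 and 16.1% for the 96 around WISP2. It was 16.4% for the 99 genes around RARRES1 and 12.4% for the 88 around IGFBP3. Of those genes 0 of 95 were more uneven than DIO2 and 2 of 96 more than WISP2, but 26 of 99 exceeded RARRES1 and 37 of 88 IGFBP3. All compared genes had passed the authors' selection on the same libraries, so uneven genes with smaller falls may be missing from the comparison. IRS4, an adaptor of the insulin receptor family, was also lowest in DMSO replicate 2, at 1190, 348.3 and 897.9 normalized reads in replicates 1 to 3. Leaving out any single library gave log2 fold changes from -5.37 to -4.64 for DIO2 and from -4.94 to -4.38 for WISP2.

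**Figure D4:**
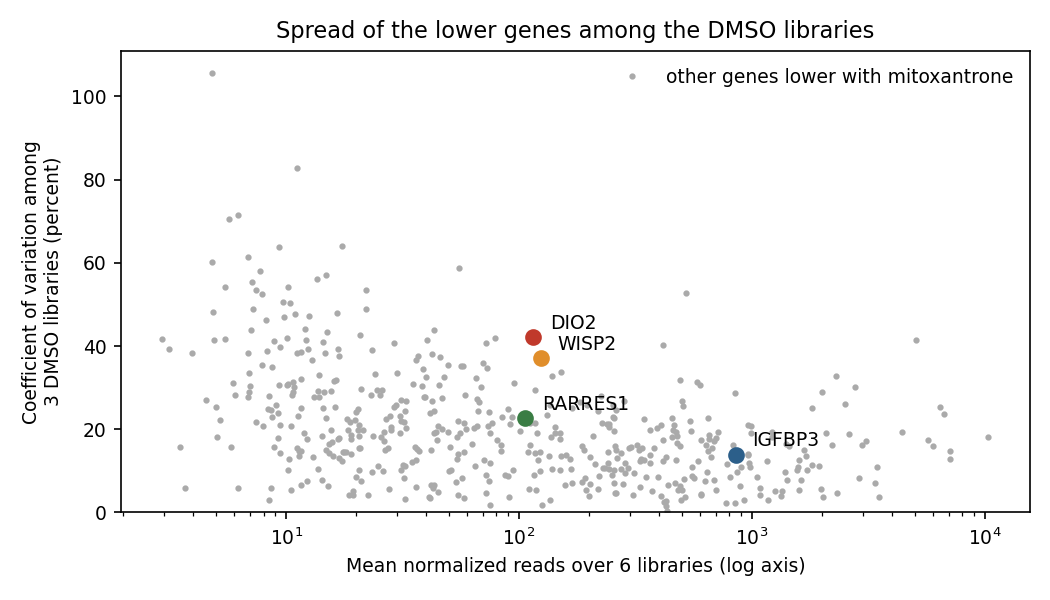
Coefficient of variation among the 3 DMSO libraries against the mean of normalized reads (log axis) for the lower genes. DIO2 (42.1%) and WISP2 (37.1%) lie at the upper edge of listed lower genes of their abundance, and RARRES1 (22.7%) and IGFBP3 (13.9%) lie inside the cloud.

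For each of the 4 genes the 3 coding genes with the most similar course within the groups were taken from 600 candidates by Pearson's r over the 6 libraries, after the group means were subtracted. They are given as a description, and several of these genes went the other way with treatment. With 6 libraries and 600 candidates, r values this high can arise by chance, and no test was made. Library values are printed only for genes that fell. For DIO2 they were LRRCC1 (r = 0.99), VAV3 (0.97) and RAET1E (0.97). VAV3, a guanine nucleotide exchange factor, had 195.6, 142.8 and 175 normalized reads with mitoxantrone, against 384.9, 293.7 and 503.8 with DMSO. For WISP2 they were SLC52A1 (1.00), PTAFR (0.97) and TNFSF10 (0.96). TNFSF10, which encodes the death ligand TRAIL, had 67.9, 81.3 and 69.8 with mitoxantrone, against 230.3, 264.8 and 378.7 with DMSO. For RARRES1 they were APLP1 (0.99), AQP3 (0.99) and CACNG4 (0.98). AQP3, a water and glycerol channel, had 188.8, 185.5 and 201.8 with mitoxantrone, against 643.6, 858.3 and 865.3 with DMSO. For IGFBP3 they were ID1 (1.00), ULBP2 (0.99) and WFDC2 (0.98). ID1, an inhibitor of helix-loop-helix transcription factors that BMP signalling induces, had 7514, 6095 and 5704 with mitoxantrone, against 11500, 16650 and 14630 with DMSO. The other genes of these sets that were lower with the drug were LRRCC1 and CACNG4. RAET1E, SLC52A1, PTAFR, APLP1, ULBP2 and WFDC2 were higher.

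The genes lie on 4 chromosomes. The table places DIO2 on chromosome 14 from 80663873 to 80854100 (minus strand) and WISP2 on chromosome 20 from 43343485 to 43357150 (plus strand). RARRES1 is on chromosome 3 from 158414681 to 158450485 (minus strand) and IGFBP3 on chromosome 7 from 45951949 to 45961473 (minus strand). The build of these positions is not given in the sources used here, and they are not those of GRCh38, where the genes start at 80197527, 44714844, 158696892 and 45912245. Within 1 Mb on the table's positions DIO2 and IGFBP3 had 0 other listed genes. RARRES1 had 1, its relative LXN (latexin), 24.2 kb away on the same strand. LXN had 261.2, 208.4 and 210.4 normalized reads with mitoxantrone, against 435.6, 538.9 and 539.8 with DMSO. It fell with a log2 fold change of -1.16 (standard error 0.15, adjusted p = 5.3e-05 in the quasi-likelihood test of edgeR, Benjamini-Hochberg), lower in 3 of 3 drug-treated libraries. Every listed gene had been selected by the authors as changed between these same libraries. The p-values of listed genes given here and below therefore repeat that selection and are no independent support. RARRES1 and LXN were thus both lower, the first by 8.33-fold and the second by 2.23-fold.

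WISP2 had 5 listed neighbours that went in both directions. The elastase inhibitor gene PI3 at 446.4 kb had 46.5 ± 2.33 normalized reads with mitoxantrone and 6.87 ± 3.43 with DMSO (SD, n = 3 each). The syndecan gene SDC4 at 596.8 kb (2.33-fold) and the protease inhibitor gene WFDC2 at 741.2 kb (2.38-fold) also rose. The antisense RNA OSER1-AS1 at 488.8 kb (3.46-fold) and the cell cycle transcription factor gene MYBL2 at 998.3 kb (2.87-fold) fell. Adjusted p-values of these 5 neighbours in that edgeR test ran from 8.6e-07 for MYBL2 to 2.8e-04 for OSER1-AS1. In GENCODE 29 the antisense gene KCNK15-AS1 covers 100% of the WISP2 span and DIO2-AS1 92.7% of the DIO2 span. MFSD1 and AC080013.1, on the other strand, cover 1.4% and 1.2% of RARRES1, and no gene overlaps IGFBP3. These shares are of whole gene spans, introns included, and the overlap of exons was not analysed. Whether the counting used strand is not given in the sources used here. It therefore cannot be told whether reads of the antisense genes are among those counted for WISP2 and DIO2. The antisense genes were not analysed here.

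The authors' annotation ties the genes together in pairs, a feature looked up after their values were seen. WISP2 and IGFBP3 share the function insulin-like growth factor binding, which 4 listed genes carry. The other carriers were ESM1 (endocan, a secreted proteoglycan), which had a log2 fold change of 4.29, and IGFALS. RARRES1 and IGFBP3 share negative regulation of cell proliferation, a term of 44 listed genes, of which 26 (59.1%) were higher and 18 lower, close to the 60.8% higher among all listed genes. WISP2 and IGFBP3 also share the extracellular region, where 111 listed genes (77.1%) were higher and 33 lower. DIO2 and RARRES1 share the annotation integral component of membrane, with 146 (68.5%) higher and 67 lower. The shares of these annotations were not tested against that of all listed genes.

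The pathways around the 4 genes were read from 5 lists of 113 symbols, older and current names both counted, of which 11 were in the table. Of these 11 genes, 7 passed the edgeR quasi-likelihood test (adjusted p at most 0.05) as lower and 3 as higher. Among all listed genes 35.3% passed as lower, 56.7% as higher and 92.0% in either direction. The authors had selected all listed genes as changed in the same libraries, so a pass here repeats that selection. The remaining symbols were not analysed here, among them the deiodinases DIO1 and DIO3, the nuclear receptors of thyroid hormone and retinoic acid, the receptor IGF1R and all 10 CCN symbols.

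The retinoid list, apart from RARRES1, held 4 listed genes of 28 symbols, and 4 passed as lower, against 35.3% of all listed genes. With 4 genes no set test was made against that share. They were STRA6, ALDH1A2, CYP26A1 and LXN, the last being the relative and neighbour of RARRES1 already described. Their median log2 fold change was -1.46, against 1.26 over all listed genes and -1.51 over the lower ones, so these falls were of ordinary size. STRA6, the cell surface receptor that takes up retinol, had 9.05, 13.6 and 18.2 normalized reads with mitoxantrone, against 39.5, 44.3 and 60.8 with DMSO. It fell 3.51-fold (adjusted p = 0.0011, edgeR, Benjamini-Hochberg). ALDH1A2, which makes retinoic acid from retinal, had 28.3, 25 and 29 with mitoxantrone, against 85.1, 38.1 and 68.5 with DMSO, and an adjusted p of 0.015 in that edgeR test. CYP26A1, which degrades retinoic acid and is itself induced by it, had 10.2, 2.08 and 12.9 with mitoxantrone, against 30.9, 26.8 and 23.1 with DMSO (adjusted p = 0.029, edgeR). STRA6, ALDH1A2 and CYP26A1 were weakly expressed, at 0.11, 0.197 and 0.21 FPKM with mitoxantrone and 0.403, 0.48 and 0.697 with DMSO. The calls for ALDH1A2 and CYP26A1 were fragile. Without DMSO replicate 1 the adjusted p was 0.14 and 0.16, without DMSO replicate 3 it was 0.071 and 0.055, and without mitoxantrone replicate 2 it was 0.071 and 0.14 (edgeR). ALDH1A2 also missed the threshold without mitoxantrone replicate 3, at 0.054, and over all alternatives its range was 4.4e-05 to 0.17. For CYP26A1 that range was 5.2e-04 to 0.16.

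Around DIO2 the picture was mixed. SLCO4A1, a transporter that can carry thyroid hormones, rose to 742.7 ± 60.2 normalized reads with mitoxantrone, against 364.1 ± 26.2 with DMSO (SD, n = 3 each). PAX8, a transcription factor of thyroid development, rose to 177 ± 18.9, against 80.0 ± 8.87 (SD, n = 3 each). KLF9, a transcription factor gene that thyroid hormone induces, fell to 39.4 ± 5.25 with mitoxantrone, against 86.7 ± 14.2 with DMSO (SD, n = 3 each). In the quasi-likelihood test of edgeR they had adjusted p-values of 4.5e-05 (SLCO4A1), 2.1e-04 (PAX8) and 0.0028 (KLF9). These 3 were the listed genes of 18 thyroid hormone symbols. With TMM or DESeq2 size factors computed over the listed genes, the calls of SLCO4A1 (log2 fold changes 0.34 and 0.04) and PAX8 (0.46 and 0.15) ended. Of 32 selenoprotein symbols apart from DIO2, GPX2 was listed. This glutathione peroxidase gene had 27.1, 13.6 and 27.9 normalized reads with mitoxantrone, against 73, 93.8 and 90 with DMSO. It fell 3.74-fold (adjusted p = 1.3e-04, edgeR, Benjamini-Hochberg).

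Around IGFBP3, 3 of 25 symbols of the insulin-like growth factor list were in the table. IRS4 had 147, 227.2 and 307 normalized reads with mitoxantrone, against 1190, 348.3 and 897.9 with DMSO. It fell 3.58-fold (adjusted p = 0.0013, edgeR, Benjamini-Hochberg), and the gap between the groups was narrow because of DMSO replicate 2. IGFALS, which joins IGFBP3 and its ligand in the large serum complex, had 8 reads over the drug-treated libraries and 37 over the DMSO libraries. Its log2 fold change was -1.90 with an adjusted p of 0.08 in the same edgeR test, and 0.034 without DMSO replicate 2 (0.0037 to 0.42 over the alternatives). STC1, a secreted glycoprotein, rose 24.3-fold, to 2089 ± 219 normalized reads with mitoxantrone, against 85.4 ± 27.2 with DMSO (SD, n = 3 each).

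**Figure D5:**
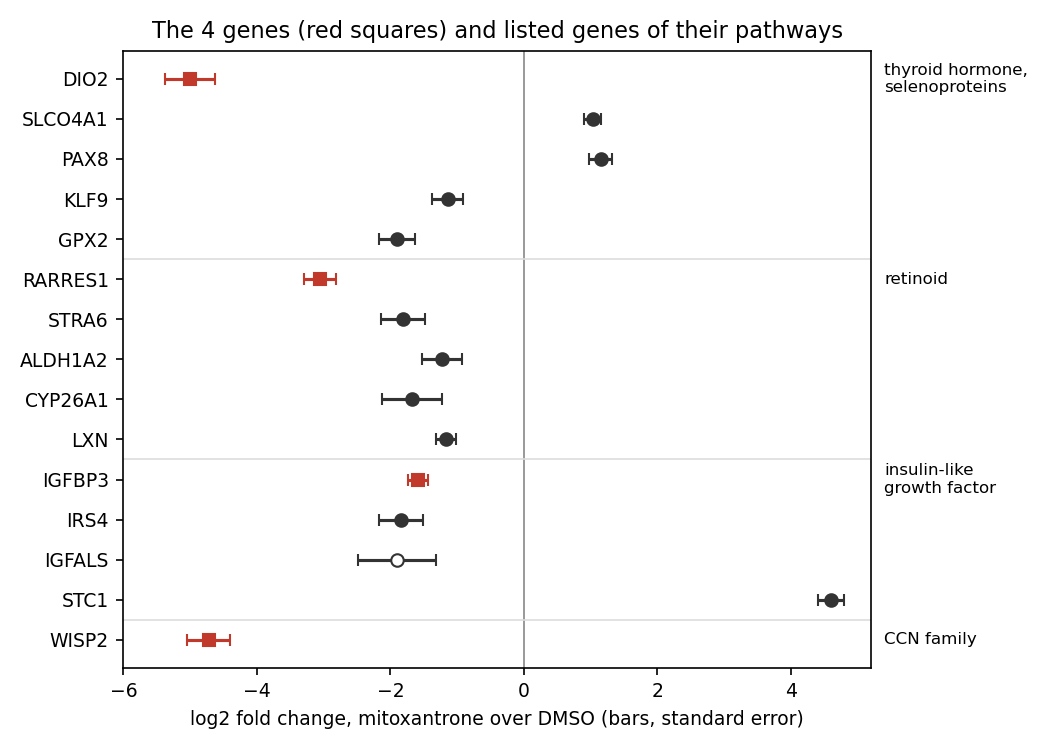
Fitted log2 fold changes (mitoxantrone over DMSO, bars for standard errors) of the 4 genes as red squares and of listed pathway genes as circles, open where the adjusted p exceeded 0.05 (IGFALS). The 4 genes of the retinoid list, among them LXN, the relative and neighbour of RARRES1, lie on the same side as RARRES1. The calls of ALDH1A2 and CYP26A1 were fragile. The genes around DIO2 and IGFBP3 lie on both sides of 0.

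Markers of the labelled epithelial origin were present: KRT8 and KRT18 were 2 of 11 epithelial markers in the table, with a sum of 122500 to 153000 normalized reads with mitoxantrone and 46890 to 63690 with DMSO. Of 11 mesenchymal markers COL1A1 was lower and ACTA2 higher, with a sum of 521.3 to 546 with mitoxantrone and 447.2 to 572.3 with DMSO. The endothelial marker CDH5 (1 of 4) and the immune marker CD14 (1 of 5) were lower, at 187.6 to 229.7 and 23.6 to 27.1 with mitoxantrone, against 386.4 to 516.6 and 43 to 70.2 with DMSO. Only genes selected as changed are listed, so a marker's absence says nothing about its expression. The counts of listed markers therefore cannot describe cell identity. The part of these markers in the levels of the 4 genes was not tested.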

How the data were processed

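Per the labels' protocols, 6 libraries of total RNA were sequenced from both ends (150 bases). Tools named in the submitters' processing notes are HISAT2 2.0.1, cutadapt 1.9.1, Cufflinks 2.2.1, HTSeq 0.6.1 and DESeq2, with no roles. Genome build and use of strand: not given in the sources used here. The authors' deposited table holds raw read counts and FPKM per library, the mean normalized count (a signal value), log2 fold changes with their standard error and Wald score, and p-values. It holds genes selected as changed. Their smallest absolute log2 fold change was 1.0 and their largest adjusted p in the authors' DESeq2 test 0.043. These are observed extremes and not stated thresholds.

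Size factors were solved from the deposited counts and mean normalized counts (largest relative error 5.0e-10), library totals from FPKM, counts and lengths. Counting error limits libraries with under 10 reads. Counts of all 1305 genes were fitted with edgeR 4.0.16 (quasi-likelihood test, R 4.3.3, no filter, threshold 0.05), with Benjamini-Hochberg adjustment for 18310 tests, the number the authors ran as judged from their p-values (18301 to 18318). The fit was tested on simulated data. Standard errors are the log2 fold change divided by the root of F. Alternatives used DESeq2 1.42.0, limma 3.58.1 on log2(FPKM + 0.1), other size factors, a filter at 10 normalized reads, each library left out and a replicate block. GENCODE 29 matched 1267 of 1305 gene IDs. Unused columns of library values numbered 0.

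Named genes are the 4 genes, listed genes of the 5 lists, the 3 most similar coding genes at or above the table's median for each, and the nearest ranks. The 4 genes, lists and tests were chosen with earlier results of these data known. Chromosomal neighbours within 1 Mb, shared annotations and ESM1 were chosen after values were seen.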

Additional observations from a re-analysis of the deposited data

How the results depend on the processing

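Every alternative kept all 4 genes lower with mitoxantrone. Size factors over the listed genes shift the median log2 fold change of all genes by -0.69 (TMM) or -0.99 (DESeq2), by construction, since most listed genes were higher. With TMM the log2 fold changes were -5.68 for DIO2, -5.40 for WISP2, -3.74 for RARRES1 and -2.27 for IGFBP3. With DESeq2 factors they were -5.98, -5.71, -4.05 and -2.58. Genes called higher then numbered 366 and 219, against 740, and made up 41.7% and 30.0% of calls, against 61.6%. With FPKM the pseudocount set the size: log2 of mean FPKM + 0.1 gave -3.72 for DIO2 and -3.93 for WISP2, and log2(FPKM + 1) gave -1.43, -1.85 and -1.98 for DIO2, WISP2 and RARRES1. The authors' deposited log2 fold changes were -3.40, -3.98 and -2.76 for the same 3 genes. DESeq2 without shrinkage of fold changes, run with the authors' size factors, gave them -5.02, -4.74 and -3.07, and IGFBP3 -1.59. The cause of the difference from the deposited values was not tested. Leaving out single libraries gave -5.37 to -4.64 for DIO2, -4.94 to -4.38 for WISP2, -3.24 to -2.94 for RARRES1 and -1.69 to -1.5 for IGFBP3, with 395 to 463 genes called lower, 622 to 715 higher and 8 to 11 pathway genes called. For the 10 pathway genes that passed the test, 128 of 140 values under alternatives kept the call and 12 lost it. IGFALS, which did not pass, stayed outside the threshold in 8 of 13 and passed in 5. With the transcript lengths the FPKM levels of WISP2 and IGFBP3 moved by more than their SD.

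The replicate numbers were not treated as pairing: deviations of same-numbered libraries correlated at -0.13, -0.08 and 0.07. The largest value was 0.21, between mitoxantrone replicate 1 and DMSO replicate 2, and of the 6 libraries DMSO replicate 3 alone correlated best with its own number (0.07). With a replicate block 463 genes were called lower, 736 higher and 10 pathway genes, and the log2 fold changes were -4.97 for DIO2, -4.70 for WISP2, -3.05 for RARRES1 and -1.58 for IGFBP3. Depth limits DIO2 and WISP2 most, whose drug-treated libraries held 4 to 11 reads.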
